A study of Mus musculus with 6 samples.

Results

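Expression of the NF-kB subunits and their inhibitors was measured by RNA sequencing in cultured endothelial cells from the sinusoids, the fenestrated capillaries, of mouse liver. The 10 genes were taken by symbol from the 23337 genes of the deposited count table: the subunit genes Nfkb1, Nfkb2, Rel, Rela and Relb, and the IkB family genes Nfkbia, Nfkbib, Nfkbie, Nfkbiz and Bcl3. All 10 were found and all 10 passed the filter on low counts. The cells had been purified from mouse liver with immunomagnetic beads, grown in endothelial medium with serum on collagen IV and then starved of serum. In the stretch group (replicates 1, 2 and 4) a Flexcell device, which pulls the elastic culture membrane, applied cyclic stretch of 4% at 1 Hz. In the control group (replicates 2, 3 and 4) the cells were left unstretched. Neither the strain, age and genotype of the mice nor the duration of stretch is stated in the labels. No label says whether the libraries of a group came from separate mice or cultures, so p-values measure the spread between these libraries, which may be technical.

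NF-kB factors are dimers of Rel-homology proteins. In resting cells most dimers are held in the cytoplasm by IkB proteins, which mask their nuclear localisation signals through ankyrin repeats. Signals from cytokine or Toll-like receptors activate the IkB kinase complex, the IkB protein is degraded, and the freed dimer binds kappaB sites in DNA. Several subunit and inhibitor genes are themselves known NF-kB targets, so the pathway contains both positive and negative feedback. In endothelium it is known for the induction of adhesion molecules and chemokines.

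The cells carried endothelial markers, and markers of other cell types moved with the groups. The 5 general endothelial markers summed to between 5606 and 6220 CPM in stretch and between 5583 and 6324 CPM in control libraries, where CPM are counts scaled to the TMM-adjusted library size; 3 of the 5 were lower in the stretch group. Of 8 sinusoidal endothelial markers 7 were lower, with sums between 5595 and 6547 CPM in stretch and between 7570 and 8644 CPM in control libraries. Of 12 macrophage markers 9 were higher, with sums between 113 and 158 CPM in stretch and between 79.4 and 94.4 CPM in control libraries. Cd68 made up most of each sum and was not called (edgeR adjusted p = 0.0549). It had between 67.7 and 92.1 CPM in stretch and between 63.0 and 71.6 CPM in control libraries. Markers of Kupffer cells, the resident liver macrophages, were present at low levels and higher in the stretch group. Marco had 4.38, 1.59 and 1.37 CPM in stretch replicates 1, 2 and 4, against 0.169, 0.356 and 0.243 CPM in control replicates 2, 3 and 4 (log2 fold change 3.25). Cd5l had 8.79, 2.21 and 5.10 CPM in these stretch libraries, against 1.13, 1.48 and 0.878 CPM in these control libraries (log2 fold change 2.20). Vsig4 and C1qa also rose (log2 fold changes 2.71 and 2.52), while Clec4f and Timd4 were too low to be tested, with at most 0.395 CPM in a stretch and 0.0677 CPM in a control library. All 8 hepatocyte markers were higher, with sums of 601, 117 and 116 CPM in stretch replicates 1, 2 and 4, against 67.7, 38.9 and 85.7 CPM in control replicates 2, 3 and 4, so that stretch replicate 1 stood apart. Stellate cell and fibroblast markers had 0 calls, with sums between 66.4 and 110.3 CPM in stretch and between 83.7 and 94.6 CPM in control libraries. The 4 neutrophil markers summed to at most 0.142 CPM in stretch and 0.119 CPM in control libraries.

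Of the 10 genes, 9 rose in stretched cells and 0 fell (edgeR quasi-likelihood test, Benjamini-Hochberg adjusted p under 0.05 over 14222 genes tested). The background was wide: 44.0% of all genes tested were called, 21.4% higher and 22.6% lower. The 10 genes were chosen with earlier results of these data known. Library sizes alone as scaling gave 2091 higher and 4299 lower calls, against 3040 and 3221 with TMM scaling, and the same count of 9 of the 10 genes. The largest change was in Nfkbia, which encodes IkB alpha, the inhibitor of the classical pathway (1.92-fold). Nfkbie, which encodes IkB epsilon, was the 1 gene not called (1.18-fold). The median log2 fold change of the 10 genes was 0.67, against -0.015 over all genes tested. It was 0.66 over the 5 subunits and 0.72 over the 5 inhibitors. In CPM, all 3 stretch libraries lay above all 3 control libraries for each of the 10 genes. Over all genes tested the groups were separate in this way for 55.9%, 26.7% lying higher and 29.2% lower. Without stretch replicate 1, which had the highest hepatocyte marker sum, the 9 calls were kept, against 37.1% of all genes tested called, 18.1% higher. The log2 fold changes of the 9 genes then lay between 0.38 for Nfkb1 and 0.90 for Nfkbia. Stretch replicates 2 and 4 still had hepatocyte marker sums (117 and 116 CPM) above every control library (at most 85.7 CPM). Their macrophage marker sums (113 and 138 CPM) were also above every control library (at most 94.4 CPM). Cd68, which was not called, made up most of these sums. The part of other cell types in the NF-kB changes was not tested, and fewer cells of a type and less RNA per cell cannot be told apart.

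To show the sequence around the starts of these genes, windows at the annotated starts were read from the RefSeq promoter table (GRCm38.p6). It held 7 of the 10 genes and lacked Nfkb1, Relb and Nfkbiz. Each window ran from 250 bases before to 50 bases after the start, and base 0 is the start. Exact matches to 2 common forms of the kappaB site were searched on both strands: a 10-base form, GGG then any 2 bases then TTTCC, and a 9-base form, GGG then any 2 bases then TTCC. A 10-base match can contain a 9-base match. The 250 bases before the start of Nfkbia, on the minus strand at chr12:55492648-55492897, are given whole because Nfkbia changed most. The other stretches are 30 bases around each match. Of the bases shown, exons annotated by GENCODE cover 0 for Nfkbia, Rel, Nfkbie and the first site of Bcl3, but all 30 of the second site of Bcl3, all 30 of both sites at the first start of Nfkb2 and 29 of 30 at its next start. Capitals mark the matches.
Nfkbia: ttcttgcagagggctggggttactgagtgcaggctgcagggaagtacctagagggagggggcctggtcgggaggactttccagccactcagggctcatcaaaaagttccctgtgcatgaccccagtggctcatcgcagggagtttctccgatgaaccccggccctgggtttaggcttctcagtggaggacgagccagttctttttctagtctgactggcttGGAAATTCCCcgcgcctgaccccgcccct
Nfkb2, first site: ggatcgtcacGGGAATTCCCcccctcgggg
Nfkb2, second site: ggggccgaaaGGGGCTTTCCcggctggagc
Nfkb2, site at the next start: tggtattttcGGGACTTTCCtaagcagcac
Rel: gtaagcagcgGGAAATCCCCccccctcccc
Bcl3, first site: acgcgggtccaGGAAACCCCtggggcggac
Bcl3, second site: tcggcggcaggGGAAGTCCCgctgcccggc
Nfkbie: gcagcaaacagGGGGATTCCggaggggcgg
The match of Nfkbia occupied bases -29 to -20 and read on the opposite strand of the gene. Each chromosome position given with the other matches spans the whole 30-base stretch shown, of which the match is a part. Nfkb2 (plus strand) had a pair of overlapping 9-base matches, 1 on each strand, at bases -39 to -30 (chr19:46304688-46304717) and a 10-base match at bases -11 to -2 (chr19:46304716-46304745) of its first annotated start, and another at bases 10 to 19 of the next start (chr19:46305695-46305724). The match of Rel lay at bases -91 to -82 (minus strand, chr11:23771041-23771070). Bcl3 had matches at bases -104 to -96 (minus strand, chr7:19822841-19822870) and 3 to 11 (chr7:19822734-19822763). Nfkbie, the gene that was not called, had one at bases -105 to -97 (plus strand, chr17:45555584-45555613). Rela and Nfkbib had 0 exact matches in their windows, and both rose. Of all 32851 RefSeq windows, 1.63% held the 10-base form, 5.82% the 9-base form and 7.0% either, against 7 of the 9 windows of the members, 2 of which share a site of Nfkb2. Counted by gene, 5 of the 7 members held a match in at least 1 window, against 7.93% of the 27025 genes in the table. A match of letters is a description and shows no binding.

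**Figure D1:**
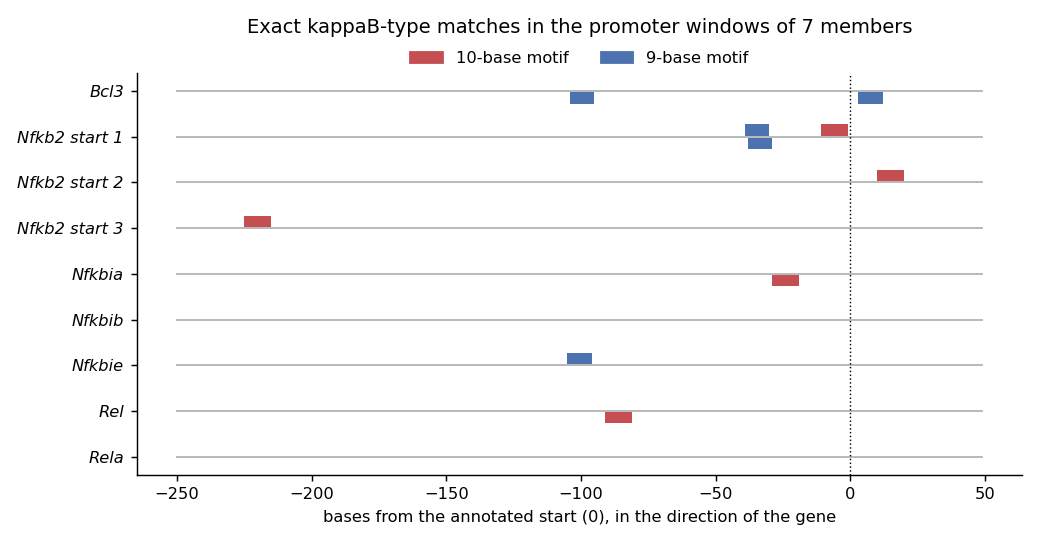
Exact kappaB-type matches in the promoter windows of 7 NF-kB genes. The x axis is the distance in bases from the annotated start, red bars are 10-base and blue bars 9-base matches, and bars above or below a line read on the strand of the gene or on the opposite strand; a 9-base match inside a 10-base one is covered by it, and start 2 and start 3 of Nfkb2 share 1 site. The match of Nfkbia begins at base -29, and Rela and Nfkbib have none.

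Levels are given first per gene length, so that genes can be compared. The authors' RPKM values (reads scaled by the listed gene length and by library depth) placed Nfkbia first in both groups, with 148 ± 9.26 RPKM in stretch and 81.9 ± 6.29 RPKM in control libraries (SD, n = 3 each). Rela followed with 93.4 ± 1.33 RPKM in stretch and 72.5 ± 4.73 RPKM in control libraries. The ranges of Nfkbia and Rela did not overlap in stretch libraries but overlapped in control libraries. Then came Nfkb1, Nfkb2, Relb and Nfkbib in the same order in both groups, with stretch means between 58.6 RPKM for Nfkb1 and 32.6 RPKM for Nfkbib, and control means between 46.5 RPKM for Nfkb1 and 21.0 RPKM for Nfkbib. Nfkbiz averaged 11.2 RPKM and Nfkbie 11.0 RPKM in stretch libraries, against 8.42 RPKM for Nfkbiz and 9.91 RPKM for Nfkbie in control libraries. These 2 neighbours overlapped in range in each group. Bcl3 averaged 6.84 RPKM in stretch and 4.15 RPKM in control libraries. Rel, the scarcest, averaged 3.74 RPKM in stretch and 2.51 RPKM in control libraries. Apart from the pairs named, neighbours in the order did not overlap in range within a group.

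Among the subunits, the genes of the DNA-binding partners with activation domains were Rela, Relb and Rel. Rela encodes p65, the main activating subunit of the classical pathway (chromosome 19, 5637490 to 5648130). Its level was 281, 277 and 289 CPM in stretch replicates 1, 2 and 4, against 196, 206 and 216 CPM in control replicates 2, 3 and 4. Each stretch library lay above each control library, and the spread was small in both groups. Rela rose 1.37-fold (log2 fold change 0.45 ± 0.05 SE, edgeR adjusted p = 0.000227).

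Relb (chromosome 7, 19606222 to 19629438) encodes the activating partner of p52 in the non-canonical pathway. It had 102, 99.1 and 104 CPM in stretch replicates 1, 2 and 4, against 57.2, 63.3 and 64.7 CPM in control replicates 2, 3 and 4. The 3 stretch libraries lay close together and well above the control libraries. Relb rose 1.65-fold (log2 fold change 0.72 ± 0.06, edgeR adjusted p = 7.46e-05).

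Rel (chromosome 11, 23741729 to 23770970) encodes c-Rel, a subunit best known from lymphocytes. Its level was low, with 12.1, 9.77 and 10.4 CPM in stretch replicates 1, 2 and 4, against 6.65, 7.59 and 6.21 CPM in control replicates 2, 3 and 4. Behind these levels were between 585 and 677 counts in stretch and between 332 and 393 counts in control libraries. The groups did not overlap, and the SE of Rel was the largest among the subunits (log2 fold change 0.66 ± 0.12, edgeR adjusted p = 0.00246). Lymphocyte markers were at or near 0 in all libraries: 3 of 6 had 0 counts throughout, and the summed level of the 6 was at most 0.356 CPM in stretch and 0.237 CPM in control libraries. Macrophage markers summed to between 113 and 158 CPM in stretch and between 79.4 and 94.4 CPM in control libraries. The part of other cell types in the level of Rel was not tested.

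The other subunit genes, Nfkb1 and Nfkb2, encode precursors with ankyrin repeats that are processed to the DNA-binding subunits p50 and p52, which lack an activation domain. Nfkb2 (chromosome 19, 46304737 to 46312090) had 182, 168 and 176 CPM in stretch replicates 1, 2 and 4, against 107, 114 and 108 CPM in control replicates 2, 3 and 4. The lowest stretch library was thus well above the highest control library. Nfkb2 rose 1.60-fold (log2 fold change 0.68 ± 0.05, edgeR adjusted p = 6.03e-05).

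Nfkb1 (chromosome 3, 135584655 to 135691547) had 286, 254 and 266 CPM in stretch replicates 1, 2 and 4, against 203, 200.4 and 199 CPM in control replicates 2, 3 and 4. The control libraries were nearly equal, and the stretch libraries were more spread but all higher. Its rise, 1.34-fold, was the smallest among the subunits (log2 fold change 0.42 ± 0.05, edgeR adjusted p = 0.000401).

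The IkB family genes, called inhibitors here, encode the classical cytoplasmic IkB proteins (Nfkbia, Nfkbib and Nfkbie) and the nuclear ones (Nfkbiz and Bcl3). The name follows the family and does not state how each protein acts. Nfkbia (chromosome 12, 55489409 to 55492647), whose product is resynthesised after NF-kB activation and ends the response, had 277, 237 and 268 CPM in stretch replicates 1, 2 and 4, against 128, 146 and 133 CPM in control replicates 2, 3 and 4. Every stretch library was far above the control range. The log2 fold change of 0.94 ± 0.07 (edgeR adjusted p = 7.32e-05) was larger than that of 95.9% of the genes tested.

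Nfkbib (chromosome 7, 28758251 to 28766524) encodes IkB beta, which is known for a slower turnover than IkB alpha. It had 69.9, 69.3 and 73.1 CPM in stretch replicates 1, 2 and 4, against 42.9, 44.4 and 41.2 CPM in control replicates 2, 3 and 4. Values within each group were close together, and the groups were far apart. Nfkbib rose 1.65-fold (log2 fold change 0.72 ± 0.05) and had the smallest adjusted p of the 10 genes (edgeR adjusted p = 5.33e-05).

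Nfkbie (chromosome 17, 45555716 to 45563168) had 32.5, 28.9 and 27.5 CPM in stretch replicates 1, 2 and 4, against 22.6, 26.9 and 25.9 CPM in control replicates 2, 3 and 4. The groups did not overlap, but stretch replicate 4 and control replicate 3 lay close together. The log2 fold change of 0.24 ± 0.09 did not pass (edgeR adjusted p = 0.0538). Over the alternatives that test for any change, adjusted p lay between 0.0273 (DESeq2) and 0.221 (edgeR, library sizes alone). Against a minimum change of 1.2-fold it was 0.720 (glmTreat). Nfkbie passed with DESeq2 (adjusted p = 0.0273) and with RLE factors (adjusted p = 0.0419). Robust dispersion estimates (adjusted p = 0.0489) and a filter of 1 CPM in 3 libraries (adjusted p = 0.0450) also called it. It also passed without stretch replicate 4 (adjusted p = 0.0492). In the authors' deposited table its FDR was 0.0693, and the other 9 genes had an FDR of at most 0.000138.

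Nfkbiz (chromosome 16, 55811377 to 55838641) encodes IkB zeta, an inducible nuclear cofactor for a subset of NF-kB targets. Its level was 50.4, 42.7 and 52.9 CPM in stretch replicates 1, 2 and 4, against 32.5, 33.2 and 37.0 CPM in control replicates 2, 3 and 4. Stretch replicate 2 was the nearest to the control range and still above it. Nfkbiz rose 1.42-fold (log2 fold change 0.51 ± 0.09, edgeR adjusted p = 0.00198).

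Bcl3 (chromosome 7, 19808462 to 19822755) encodes a nuclear IkB protein that binds p50 and p52 dimers on DNA. It had 15.3, 12.4 and 14.3 CPM in stretch replicates 1, 2 and 4, against 6.74, 8.60 and 8.62 CPM in control replicates 2, 3 and 4. The control replicates 3 and 4 were nearly equal and control replicate 2 was lower, and the 3 stretch libraries were above them all. Bcl3 rose 1.76-fold (log2 fold change 0.81 ± 0.12, edgeR adjusted p = 0.0011).

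**Figure D2:**
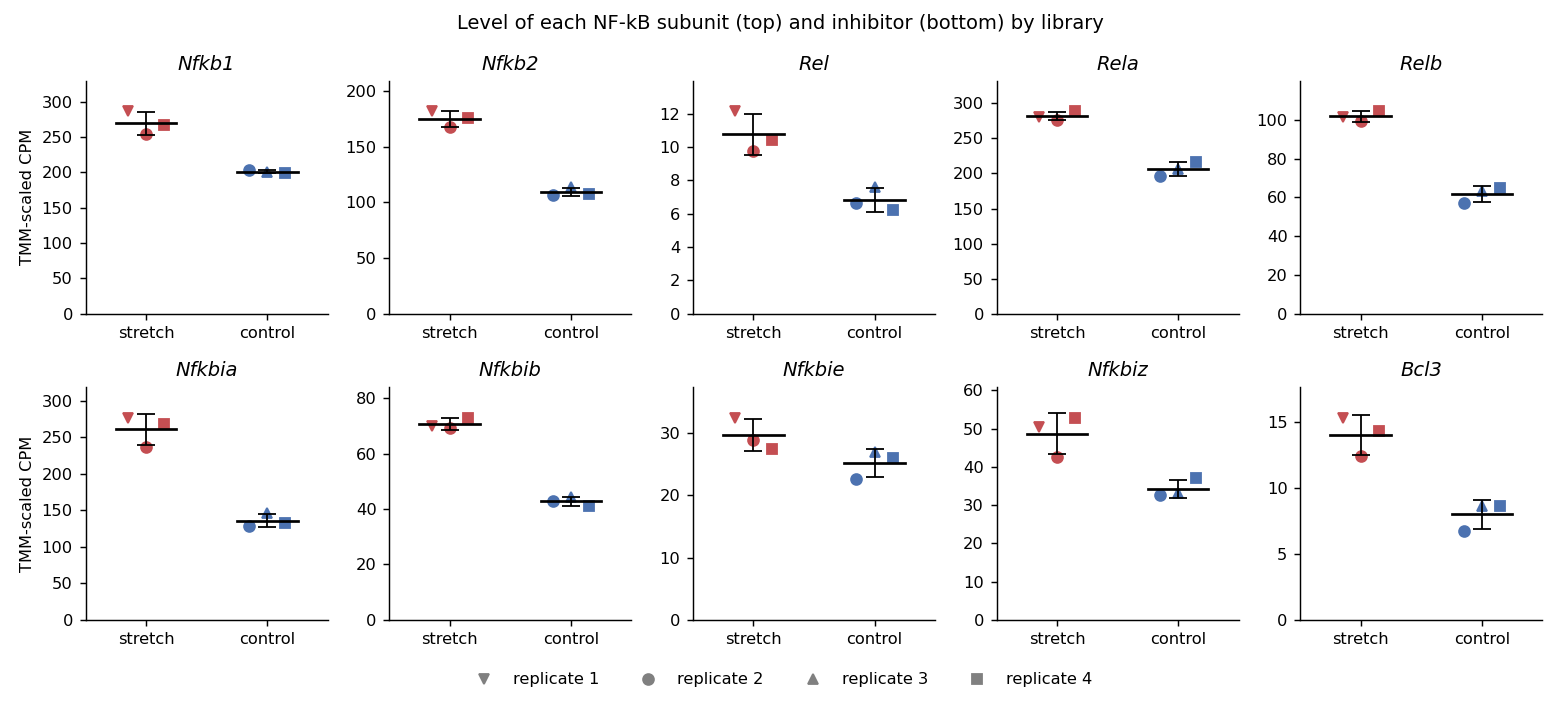
Level of each NF-kB subunit gene (top row) and inhibitor gene (bottom row) in TMM-scaled CPM on linear axes that start at 0, with stretch libraries (red) left of control libraries (blue). Symbols mark the replicate number, horizontal lines the mean and bars the SD (n = 3 each). In each panel all stretch libraries lie above all control libraries, by the least margin for Nfkbie, with 27.5 CPM in stretch replicate 4 and 26.9 CPM in control replicate 3.

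Within the stretch group, replicate 2 had the lowest CPM for 9 of the 10 genes, the exception being Nfkbie, which was lowest in replicate 4. In the authors' RPKM, which lack TMM scaling, stretch replicate 2 was lowest for 6 of the 10. Within the control group, replicate 2 was lowest for 7 of the 10 genes in CPM. Stretch replicate 2 was also the deepest library, with 68489956 counts over all genes, against 58531652 and 58503669 in stretch replicates 1 and 4 and between 48948948 and 57923937 in control libraries. The part of depth in these orders was not tested.

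**Figure D3:**
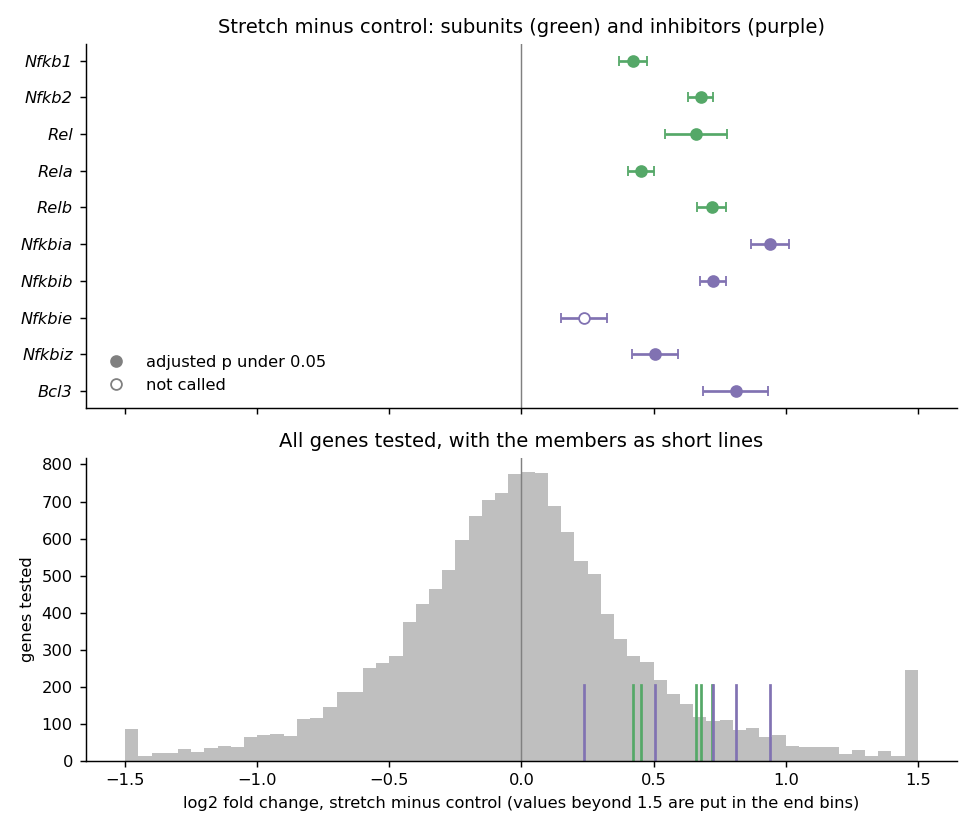
Top: log2 fold change (stretch minus control) of each NF-kB gene with its SE, subunits in green and inhibitors in purple, filled where the adjusted p was under 0.05. Bottom: number of genes per bin of log2 fold change over the 14222 genes tested, with short lines at the 10 NF-kB genes, which lie between 0.24 and 0.94.

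Ratios of RPKM within a library, which do not depend on library scaling, were compared for 4 pairs by exact two-sided permutation tests. The smallest p that 3 against 3 libraries can give is 0.1, and all 4 pairs reached it (Benjamini-Hochberg adjusted p = 0.1 over the 4). In all 4 pairs the gene with the larger rise is the numerator. The log2 differences thus restate the fold changes given above and add no separate evidence. The inhibitor to activator ratio Nfkbia to Rela was 1.69, 1.47 and 1.59 in stretch replicates 1, 2 and 4, against 1.12, 1.21 and 1.05 in control replicates 2, 3 and 4. The ratio was thus higher in every stretch library, by 0.49 on the log2 scale. The ratio of Nfkbia to Nfkbib was 4.88, 4.21 and 4.51 in stretch replicates 1, 2 and 4, against 3.67, 4.05 and 3.98 in control replicates 2, 3 and 4. The groups did not overlap, although stretch replicate 2 and control replicate 3 lay close together.

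Subunits of the non-canonical pathway were set against those of the classical pathway in the same way. The ratio of Relb to Rela was 0.445, 0.441 and 0.445 in stretch replicates 1, 2 and 4, against 0.360, 0.378 and 0.369 in control replicates 2, 3 and 4. Nfkb2 to Nfkb1 averaged 0.814 ± 0.017 in stretch and 0.682 ± 0.026 in control libraries (SD, n = 3 each). For both ratios the stretch values lay above the control values without overlap, by 0.27 and 0.26 on the log2 scale. Summed over the genes, the 5 inhibitors had 218, 197 and 213 RPKM in stretch replicates 1, 2 and 4, against 117, 134 and 126 RPKM in control replicates 2, 3 and 4. The 5 subunits summed to 248, 242 and 245 RPKM in stretch replicates 1, 2 and 4, against 171, 183 and 186 RPKM in control replicates 2, 3 and 4. Nfkbia made up most of the inhibitor sum.

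**Figure D4:**
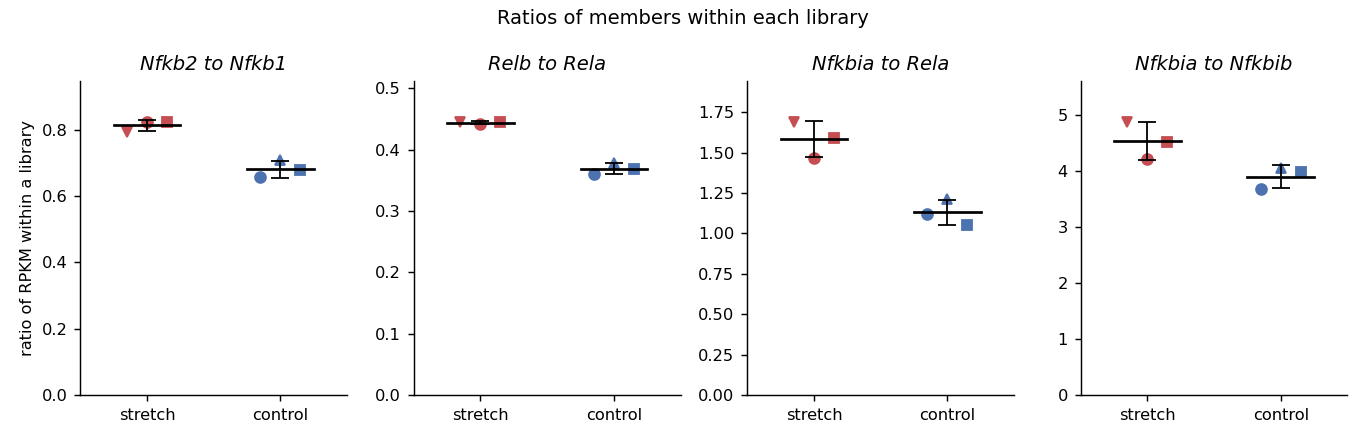
Ratio of RPKM of 2 NF-kB genes within each library, with stretch libraries (red) left of control libraries (blue), axes from 0, symbols by replicate number, and mean and SD (n = 3 each) in black. All 4 ratios are higher in each stretch library, with the widest gap for Nfkbia to Rela, 1.47 in stretch replicate 2 and 1.21 in control replicate 3.

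The remaining pathway was examined in 6 lists of 83 genes, of which 82 were tested; 38 rose (46.3%, against 21.4% of all genes tested), 14 fell (17.1%, against 22.6%) and 30 did not pass. Their median log2 fold change was 0.12. The lists were chosen with earlier results of these data known, so the shares describe the lists and do not test them. Up to 3 genes with the smallest p are described for each list, and further genes were named after their values were seen. Receptor genes split: of 9, 5 rose (55.6%, against 21.4% of all genes tested) and 4 fell (44.4%, against 22.6%). Tlr4, the endotoxin receptor, averaged 255 ± 17.1 CPM in stretch and 166 ± 2.92 CPM in control libraries (SD, n = 3 each; log2 fold change 0.62). Cd40, a TNF receptor family member that feeds the non-canonical pathway, had 13.0, 7.67 and 16.4 CPM in stretch replicates 1, 2 and 4, against 3.51, 4.23 and 5.81 CPM in control replicates 2, 3 and 4 (log2 fold change 1.45). All stretch libraries were higher, with a wide spread among them. Il1r1, Il1rap and Tnfrsf1b also rose. Tnfrsf1a, the main TNF receptor, fell (log2 fold change -0.36), and so did Tlr2, Tlr3 and the lymphotoxin beta receptor gene Ltbr.

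Of 11 genes of the IkB kinase complex and of upstream kinases with their partner proteins, 3 rose (27.3%, against 21.4% of all genes tested), 1 fell (9.09%, against 22.6%) and 7 did not pass, with a median log2 fold change of 0.06. Chuk, which encodes IKK alpha, rose 1.26-fold and Map3k14, which encodes NIK, the kinase that activates IKK alpha in the non-canonical pathway, rose 1.43-fold. Tbk1 was the other that rose. Ikbkb (IKK beta) had a log2 fold change of -0.02 and Ikbkg (NEMO, the scaffold of the complex) of -0.04, and neither passed (edgeR adjusted p = 0.777 and 0.667). Map3k8 fell in the fit of all libraries (log2 fold change -0.39, edgeR adjusted p = 0.0304) but lost the call when any library other than stretch replicate 2 was left out, with adjusted p between 0.0566 and 0.0988.

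Among 16 receptor adaptors 7 rose (43.8%, against 21.4% of all genes tested), 2 fell (12.5%, against 22.6%) and 7 did not pass. Traf1, itself a known NF-kB target, had 26.2, 25.8 and 28.1 CPM in stretch replicates 1, 2 and 4, against 13.8, 12.5 and 15.3 CPM in control replicates 2, 3 and 4 (log2 fold change 0.94). Bcl10, an adaptor in IKK activation, rose 1.55-fold and Traf3, which promotes the degradation of NIK, rose 1.22-fold. The 2 that fell were Irak4 and Malt1, the partner of Bcl10. In the ubiquitin machinery 4 of 13 rose (30.8%, against 21.4% of all genes tested), 4 fell (30.8%, against 22.6%) and 5 did not pass. Birc3, an E3 ligase and known target, averaged 123 ± 1.83 CPM in stretch and 80.9 ± 4.84 CPM in control libraries (SD, n = 3 each). The E2 enzyme genes Ube2d3 and Ube2n rose 1.33-fold and 1.30-fold. The 2 beta-TrCP genes, which recognise phosphorylated IkB, went opposite ways: Fbxw11 rose (log2 fold change 0.31) and Btrc fell (-0.38). Birc2, Rbck1 and Sharpin were the others that fell, the last 2 being subunits of the linear ubiquitin ligase, whose catalytic subunit gene Rnf31 did not pass (log2 fold change 0.06).

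Of 19 other negative regulators 8 rose (42.1%, against 21.4% of all genes tested), 3 fell (15.8%, against 22.6%) and 8 did not pass. Tnip1, which encodes a ubiquitin-binding partner of A20, had 538, 479.9 and 514 CPM in stretch replicates 1, 2 and 4, against 219, 244 and 249 CPM in control replicates 2, 3 and 4 (log2 fold change 1.10, edgeR adjusted p = 4.56e-05). Tnfaip3, which encodes A20 itself, a deubiquitinase and feedback inhibitor, had 108, 90.6 and 116 CPM in stretch replicates 1, 2 and 4, against 50.5, 52.7 and 44.2 CPM in control replicates 2, 3 and 4 (log2 fold change 1.09, edgeR adjusted p = 0.000107). Both were more than 2.1 times as high in the stretch group. Zc3h12a, which encodes the ribonuclease Regnase-1, rose 1.45-fold, and the atypical IkB gene Nfkbid had a log2 fold change of 0.83. Cyld, another deubiquitinase, did not pass (log2 fold change 0.02). The 3 that fell were Pdlim2, Nfkbil1 and Nkiras2.

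Of 14 tested effector targets 11 rose (78.6%, against 21.4% of all genes tested), 0 fell (against 22.6%) and 3 did not pass. Their median log2 fold change was 0.82. This list too was chosen with earlier results known, so its share is no test of enrichment. Sele, which encodes the leukocyte adhesion receptor E-selectin, rose 2.61-fold, Gadd45b 2.23-fold and Vcam1 1.59-fold. Il6, Irf1 and Cd83 were the 3 that did not pass, and Csf2 was too low to be tested. Il6 and Cd83 were themselves near the floor, at most 0.516 CPM (Il6, stretch replicate 4) and 0.354 CPM (Cd83, stretch replicate 2). In the lists of receptors, kinases, adaptors, ubiquitin machinery and other negative regulators the medians lay between 0.02 and 0.30; the differences between lists were not tested. Against a minimum change of 1.2-fold, 22 of the 82 genes rose and 2 fell, and 9 of the 10 subunits and inhibitors remained called, against 8.51% of all genes tested called higher and 9.33% lower.

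**Figure D5:**
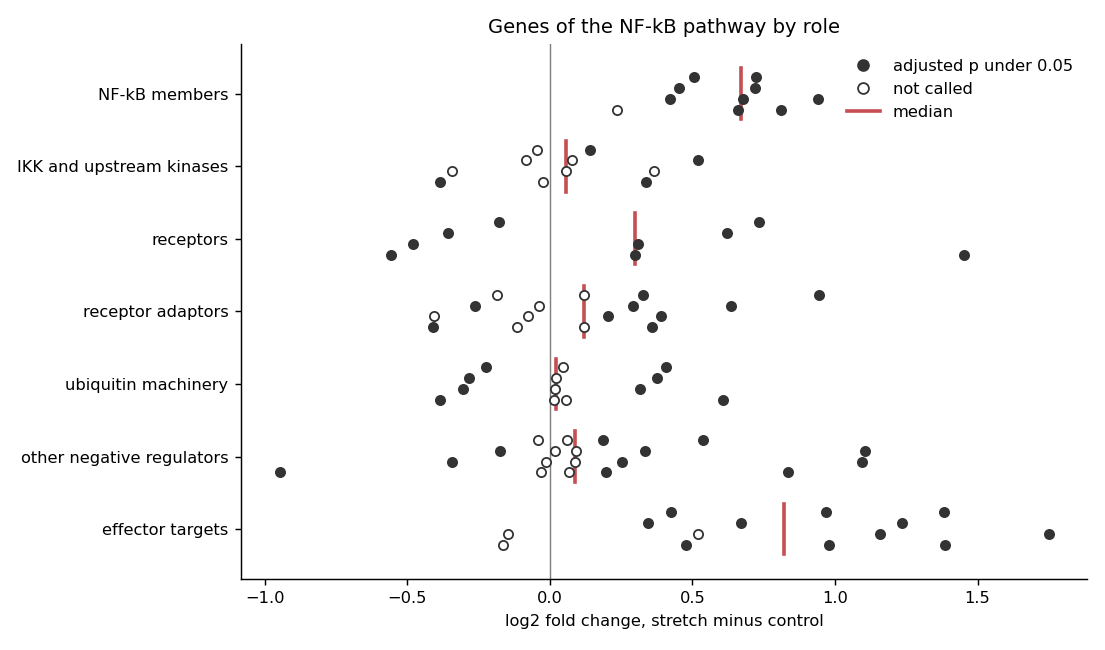
Log2 fold change (stretch minus control) of the 10 NF-kB subunit and inhibitor genes and of the genes of 6 pathway lists, 1 point per gene, filled where the adjusted p was under 0.05, with the median of each row in red. The medians are 0.67 for the subunits and inhibitors, 0.82 for the effector targets and between 0.02 and 0.30 for the other 5 lists.

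The genes other than these 10 whose pattern over the 6 libraries was nearest to that of Nfkbia (Euclidean distance of centred log2 CPM) were Polr1b, Nolc1, Eif1a, Nop56 and Agpat4, at distances between 0.079 and 0.099. Polr1b encodes a subunit of RNA polymerase I, Nolc1 and Nop56 nucleolar proteins, Eif1a a translation initiation factor and Agpat4 an acyltransferase. Their log2 fold changes lay between 0.88 and 0.93. Among the subunits and inhibitors the nearest to Nfkbia was Bcl3, at 0.27, and the farthest Nfkbie, at 0.89.

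The labels do not say whether counting used strand, and in GENCODE 3 of the 10 genes share exon bases with a gene on the opposite strand. Nfkb2 shares 299 of 4584 exon bases with Psd, which had at most 582 counts in a library, and 531 with a noncoding transcript. Nfkbib shares 42 of 2169 exon bases with Sirt2, which had up to 9387 counts, and 314 with Ccer2. Bcl3 shares 161 of 2475 exon bases with a noncoding antisense gene. Reads of these shared bases cannot be assigned to a strand here.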

How the data were processed

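RNA sequencing libraries (TruSeq) of 3 stretch and 3 control samples were grouped by sample title. Raw gene counts are as deposited by the authors. Per the submitters' processing notes TopHat2 2.1.0, featureCounts and edgeR were used with GRCm38 (mm10), without stated roles. RPKM values were deposited by the authors, as was their comparison table, whose log2 fold changes and mean log2 CPM, likelihood ratio score and p-value with FDR are named per the file headers.

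Differences were tested on the counts by edgeR 4.0.16 (R 4.3.3): TMM factors, filterByExpr defaults (14222 of 23337 genes kept), quasi-likelihood F test, Benjamini-Hochberg adjustment over all genes tested, called at 0.05. The SE is the log2 fold change divided by the square root of F. The common biological coefficient of variation was 0.12. Totals lay between 48948948 and 68489956 counts. Ratios were tested exactly with scipy 1.17.1. Only the edgeR fit was tested on simulated data, which had far fewer changed genes than were called here.

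The members and lists were chosen with earlier results of these data known. All 10 members are named, with up to 3 called genes of smallest p per list and the 5 genes nearest to Nfkbia. Emr1 is the older symbol of Adgre1. Alternatives were RLE, upper-quartile and no factors, 2 other filters, DESeq2 1.42.0, limma-voom (limma 3.58.1), robust dispersion, glmTreat at 1.2-fold, a block for replicate number, and omission of each library.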

Additional observations from a re-analysis of the deposited data

How the results depend on the processing

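All 10 subunit and inhibitor genes stayed higher in the stretch group under each of the 16 alternatives, and 9 or 10 were called: the 9 calls were kept throughout, and Nfkbie was added by RLE factors, a filter of 1 CPM in 3 libraries, DESeq2, robust dispersion and leaving out stretch replicate 4. The log2 fold change of Nfkbia lay between 0.85 and 1.02, and that of Nfkbie between 0.14 and 0.29. With library sizes alone the median of all genes moved to -0.11, and the log2 fold changes of the 10 genes were lower by a similar amount. Against a minimum of 1.2-fold (glmTreat) 2537 genes were called, 1210 higher and 1327 lower, in place of 6261, and 24 of the other pathway genes, 22 higher and 2 lower, in place of 52. That test asks for a larger change by construction. Among the up to 3 genes of smallest p in each list, Chuk, Traf3, Tnfrsf1a and Map3k8 then lost their calls. Leaving out 1 library at a time called between 43 and 46 of the other pathway genes, against between 32.8% and 40.7% of all genes tested. The log2 difference of the ratio Nfkbia to Rela lay between 0.44 and 0.54 when single libraries were left out, where the smallest possible exact p is 0.2.

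Both groups have a replicate 2 and a replicate 4, without a label that ties equal numbers to a shared isolation. The deviations of same-numbered libraries from their group means had correlations of 0.212 and 0.114 across genes. For differently numbered libraries of the 2 groups they lay between -0.204 and 0.18. With 2 shared numbers this does not establish pairs. With the replicate number as a block, 9 of the 10 genes and 46 of the other pathway genes were called, against 39.2% of all genes tested. Map3k8 lost its call (edgeR adjusted p = 0.134). The other replicate numbers each occur in a single group, so this fit compares the groups only through numbers 2 and 4. At these depths each of the 10 genes had at least 332 counts in every library.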
